A study of Mus musculus with 4 samples.

Results

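The 10 genes described here are the transcription factor Nfe2l2 (NRF2), 7 genes of the oxidative stress response that it is known to control (Hmox1, Nqo1, Gclc, Gclm, Txnrd1, Srxn1 and Osgin1) and the metallothioneins Mt1 and Mt2. They were taken by gene symbol from a table of 55487 gene identifiers, and each symbol matched 1 identifier. The genes were chosen by values measured in these same libraries, namely their levels and the contrast of the morpholinos within each mouse, so for the 10 genes that contrast is a description, and any count of calls among them stands beside the share of all genes with nothing read from it. RNA was sequenced from muscle stem (satellite) cells of skeletal muscle from Tg:Pax7-nGFP mice, a transgene in which the Pax7 promoter marks satellite cell nuclei with GFP. All libraries share that genotype, and the sources used here give neither the age nor the sex of the animals. The Numb exon 6 morpholino, an antisense oligomer designed to keep exon 6 of Numb out of the mature transcript, was applied to minced muscle in the course of the initial digestion, before the cells were isolated, and its reference was a control morpholino used the same way. Both morpholinos are labelled for each of 2 mice, which makes 2 Numb exon 6 libraries and 2 control libraries (n = 2 per group).

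NRF2 is normally held at low levels by KEAP1, which presents it to the CUL3 ubiquitin ligase. Oxidants and electrophiles disable KEAP1, and NRF2 then pairs with small MAF proteins on antioxidant response elements and switches on genes of glutathione synthesis, thioredoxin reduction, quinone reduction and heme breakdown. Because this control acts on protein stability, the amount of Nfe2l2 transcript need not follow the activity of the protein. Metallothioneins are small cysteine-rich proteins that bind zinc and copper. Their genes are driven by MTF1, a zinc-sensing factor that binds metal response elements, and are also induced by glucocorticoids, cytokines and oxidants.

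Estimated counts summed to between 230431665 and 355411827 per library, mitochondrially encoded genes took 3.98% to 4.47% of them and 2 rRNA-like genes 5.00% to 8.95%. The counts were derived from coverage, so their totals cannot be read as sequenced fragments. Numb transcripts stood at 39.7 and 40.2 TPM in the Numb exon 6 libraries of mouse 1 and mouse 2, against 27.2 and 37.0 TPM in their controls; values per gene do not separate transcripts with and without exon 6. Satellite cell markers were present throughout, with a summed level of 11954 and 12059 TPM over 10 genes in the Numb exon 6 libraries, against 10255 and 11024 TPM in the control libraries. Pax7, their defining factor, stood at 50.9 and 59.7 TPM with the Numb exon 6 morpholino, against 37 and 51.4 TPM with the control. Sdc4 made up most of the sum, at 7328 and 7673 TPM, against 6499 and 6991 TPM. Other markers went opposite ways in the mice. Myod1 stood at 1543 and 1247 TPM, against 1255 and 1253 TPM in the controls. Calcr stood at 50.3 and 51.9 TPM, against 67.5 and 37.4 TPM. Endothelial markers (9 genes) summed to 132 and 95.0 TPM in Numb exon 6 libraries, against 91.3 and 87.3 TPM in controls. Markers of fibro-adipogenic progenitors (9 genes) summed to 1085 and 1015 TPM in Numb exon 6 libraries, against 982 and 873 TPM in controls, and myofibre markers (10 genes) to 169 and 176 TPM, against 151 and 159 TPM. All these sums were thus higher with the Numb exon 6 morpholino within each mouse, and their part in what follows was not tested. Single markers did not all follow the sums. In TPM, 5 of the 10 myofibre markers were higher and 2 lower in both mice. Actn3 made up most of the myofibre sum, at 135.8 TPM in mouse 2, against 117.7 TPM in its control. Higher in both mice were 7 of the 10 satellite cell, 5 of the 9 endothelial and 8 of the 9 fibro-adipogenic markers, with 0 lower in both. Of all tested genes 32.1% were higher and 23% lower in both mice in TPM. In counts scaled to library size (CPM) these shares were 28.1% and 27.3%. There 6 satellite cell markers were higher and 1 lower, and 3 myofibre markers were higher and 2 lower. For endothelial markers the counts were 4 and 0, and for fibro-adipogenic markers 6 and 0. One library stood apart in the other cell types: 8 neutrophil markers summed to 120 TPM in the Numb exon 6 library of mouse 2, against 6.06 TPM in that of mouse 1 and 4.99 and 11.2 TPM in the controls.

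The stretches of DNA just before the starts of 4 of the genes are shown because they hold letters that match the cores of the elements named above. Binding to them was not measured. Promoter entries of RefSeq on GRCm38.p6 were held for 8 of the 10 genes (Nfe2l2, Nqo1, Gclm, Txnrd1, Srxn1, Osgin1, Mt1 and Mt2), and the 250 bases before the RefSeq start were searched on both strands. Sequences run 5' to 3' on the strand of the gene, and a match on the reverse strand reads as its complement. Capitals mark the metal response element core (TGCACNC or TGCGCNC) in Mt2 and Mt1 and the antioxidant response element core (TGACNNNGC or TGAGNNNGC) in Srxn1 and Gclm. The windows lie at chr8:94172368-94172617 (plus strand) for Mt2, chr8:94178839-94179088 (plus strand) for Mt1, chr2:152105274-152105523 (plus strand) for Srxn1 and chr3:122245307-122245556 (plus strand) for Gclm.
Mt2: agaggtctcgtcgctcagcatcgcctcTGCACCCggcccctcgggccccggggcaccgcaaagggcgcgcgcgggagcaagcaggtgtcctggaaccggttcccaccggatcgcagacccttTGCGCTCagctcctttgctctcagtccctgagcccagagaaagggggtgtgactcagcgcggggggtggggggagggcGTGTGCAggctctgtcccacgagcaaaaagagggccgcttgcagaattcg
Mt1: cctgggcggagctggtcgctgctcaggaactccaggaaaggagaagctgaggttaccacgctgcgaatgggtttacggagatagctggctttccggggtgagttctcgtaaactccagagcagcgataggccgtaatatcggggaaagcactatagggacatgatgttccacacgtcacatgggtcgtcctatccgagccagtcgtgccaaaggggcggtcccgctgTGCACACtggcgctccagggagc
Srxn1: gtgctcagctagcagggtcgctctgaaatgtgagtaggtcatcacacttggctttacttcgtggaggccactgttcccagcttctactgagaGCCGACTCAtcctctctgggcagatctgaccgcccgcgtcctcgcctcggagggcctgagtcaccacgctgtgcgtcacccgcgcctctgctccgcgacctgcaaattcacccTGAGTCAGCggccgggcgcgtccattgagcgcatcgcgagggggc
Gclm: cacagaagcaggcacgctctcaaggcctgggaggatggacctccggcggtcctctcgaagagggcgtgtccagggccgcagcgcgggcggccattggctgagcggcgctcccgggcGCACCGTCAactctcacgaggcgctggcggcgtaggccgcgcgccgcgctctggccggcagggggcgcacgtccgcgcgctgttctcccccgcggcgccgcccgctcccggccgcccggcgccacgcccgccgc

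The antioxidant response element core was matched in 6 of the 8 genes, namely Nfe2l2, Gclm, Txnrd1, Srxn1, Osgin1 and Mt2, and in 6 of their 10 windows, against 23% of all 32851 promoter windows of the same length. The metal response element core was matched in 4 of the 8 genes, with 3 matches in Mt2, 2 in Gclm and 1 each in Srxn1 and Mt1. At least 1 match was held by 21.4% of all windows and at least 3 by 1.26%. In Srxn1, Osgin1 and Mt2 an antioxidant response element core overlaps TGACTCA, the site bound by AP-1, which 4.46% of all windows hold; Srxn1 holds a further TGACTCA that overlaps no such core. The core of Mt2 reads TGACTCAGC and ends 71 bases before the start, and that of Osgin1 reads TGAGTCAGC on the reverse strand. In Gclm the core overlaps 1 of the metal response element matches. The Nqo1 window held none of the 3 motifs, which says only that these letters are not in these 250 bases. The counts of the other genes, too, cover only their windows. For Mt1, annotated transcripts also start downstream of its window, and the bases between were not searched. The antioxidant core was first searched as TGACNNNGC alone and widened after the matches were seen. All matches in Srxn1 and Osgin1 are of the added form TGAGNNNGC, whereas Nfe2l2, Gclm, Txnrd1 and Mt2 match the form first searched. The share of 23% is that of the widened core, so nothing is read from the comparison with it.

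**Figure D1:**
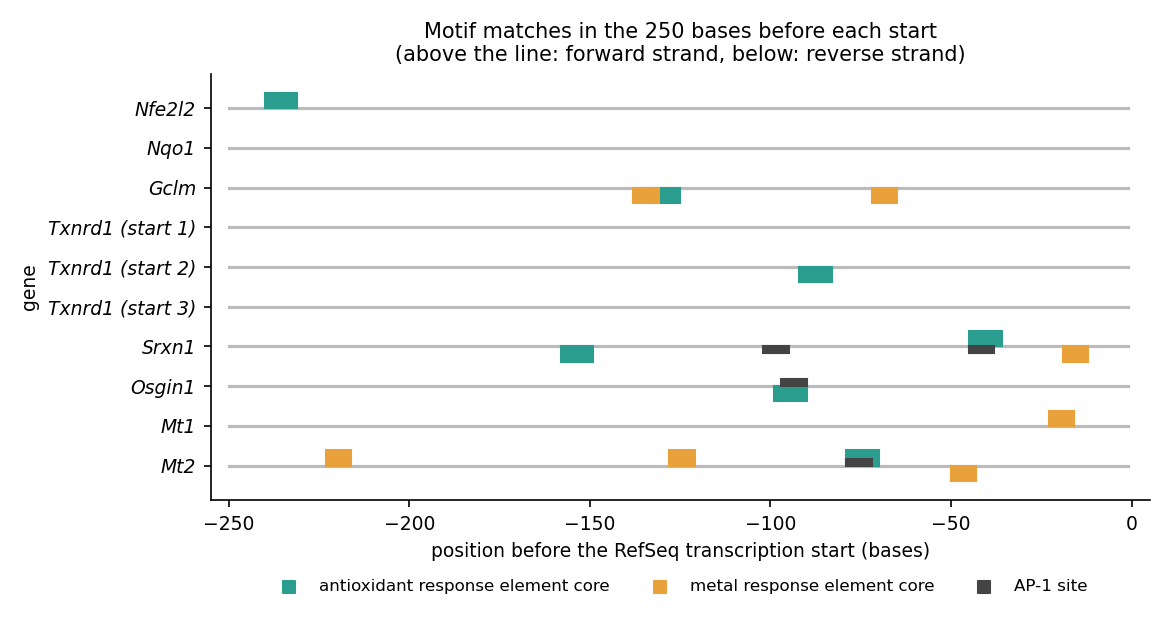
Motif matches in the 250 bases before each RefSeq start of the 8 genes with an entry (x axis, bases before the start; 1 line per start, with 3 starts for Txnrd1). Boxes above a line are on the forward strand of the gene and boxes below it on the reverse strand; the Mt2 line carries 3 metal response element cores and 1 antioxidant core that overlaps an AP-1 site, and the Nqo1 line carries no box.

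Levels of different genes were compared in TPM, a unit that corrects for transcript length. Hmox1, the enzyme that breaks heme down to biliverdin, iron and carbon monoxide, was the most abundant of the 10 by far. It stood at 8709 and 7729 TPM in the Numb exon 6 libraries of mouse 1 and mouse 2, against 9678 and 9903 TPM in the control libraries. With mitochondrially encoded and rRNA-like genes set aside, that placed it between rank 2 and rank 6 of all genes. Few transcripts thus stood at a higher level in these bulk libraries, and the level was not assigned to a cell type. Mt1 ranged from 2231 to 3413 TPM over the 4 libraries and Mt2 from 1777 to 2511 TPM; these ranges overlap, although Mt1 was above Mt2 in each library. Txnrd1, the cytosolic thioredoxin reductase, ranged from 1219 to 1523 TPM, below every value of Mt2.

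Srxn1, which restores overoxidised peroxiredoxins, ranged from 516 to 559 TPM and Nfe2l2 itself from 285 to 316 TPM. Osgin1, an oxidative stress induced growth inhibitor, ranged from 160 to 404 TPM and so overlapped Nfe2l2 in this order. The subunits of glutamate-cysteine ligase, which carries out the rate-limiting step of glutathione synthesis, followed at 102 to 118 TPM for the modifier subunit Gclm and 45.3 to 55.7 TPM for the catalytic subunit Gclc. Nqo1, a quinone reductase often used as the reporter gene of NRF2, was listed at 2.69 to 3.49 TPM and ranked no higher than 11068. The 10 genes together took 1.61% and 1.63% of all TPM in the Numb exon 6 libraries, against 1.62% and 1.79% in the control libraries.

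**Figure D2:**
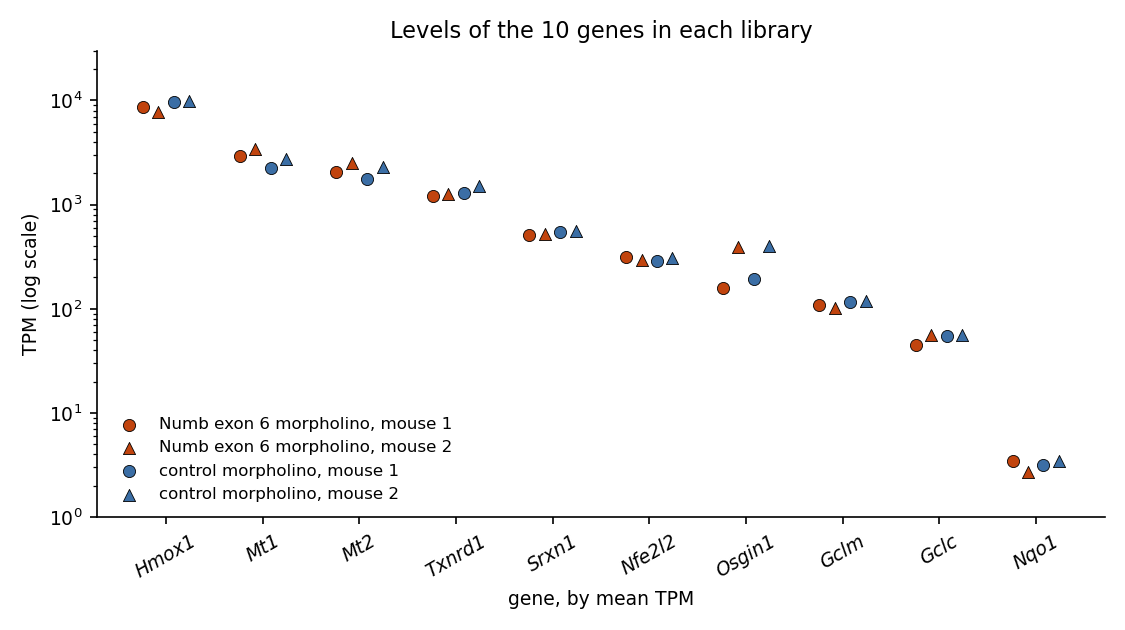
Level of each of the 10 genes in TPM (log scale) in the 4 libraries, with genes ordered by mean level, Numb exon 6 libraries in orange-red, control libraries in blue, mouse 1 as circles and mouse 2 as triangles; each point is 1 library. Hmox1 lies between 7729 and 9903 TPM and Nqo1 between 2.69 and 3.49 TPM, and Osgin1 is the gene whose circles and triangles part most.

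Relatives of these genes were measured as well. Hmox2, the constitutive heme oxygenase, stood at 26 and 26.3 TPM in the Numb exon 6 libraries, against 19.7 and 24.4 TPM in the controls, so Hmox1 exceeded it by between 294 and 491 times in a library. Mt3 reached at most 0.805 TPM, and Mt4 was listed at 0 TPM in all libraries but the Numb exon 6 library of mouse 2, where it was at 0.407 TPM. Nfe2l1, the relative of NRF2 that controls proteasome genes, ranged from 14.4 to 18.7 TPM. Nqo2, named after its values were seen, stood at 3.02 and 3.43 TPM in the Numb exon 6 libraries, against 1.47 and 1.85 TPM in the control libraries. Its log2 fold change was 0.80 ± 0.21 (SE, 2 libraries per group), and its edgeR adjusted p over all genes was 0.999, or 0.796 in a paired fit that takes the mouse as a block.

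The comparison of the morpholinos asked how the transcriptome follows the block of Numb exon 6. Among the 10 genes the differences were small, with log2 fold changes between -0.31 and 0.30. In CPM, counts scaled to library size by TMM factors, 6 of the 10 were lower with the Numb exon 6 morpholino in both mice (Hmox1, Gclc, Gclm, Txnrd1, Srxn1 and Osgin1), and 2 were higher in both (Mt1 and Mt2). Of all 27551 tested genes, 27.3% lay lower and 28.1% higher in both animals. All 10 genes passed the filter on low counts. The median log2 fold change was -0.15 over the 10 and 0.005 over all tested genes. By edgeR 0 of the 10 passed at an adjusted p of 0.05, as did 0% of all tested genes in either direction. At an unadjusted p under 0.05 there was 1 of the 10 (4.16% of all genes). The paired fit gave 3, against 6.09% of all genes and 10.2% of the 8469 whose mean log2 CPM reached 3. In the paired fit, too, 0% of all genes passed after adjustment. DESeq2, which called 0.236% of all genes and 0.577% in its paired form, called 0 of the 10 in either fit. On CPM the groups did not overlap for 5 of the 10 on the lower side and 1 on the higher side, against 17.1% and 17.4% of all tested genes; among the 8469 better expressed genes the shares were 16.5% and 17.1%. Since the set was chosen by this contrast, nothing is read from these counts.

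Hmox1 stood at 6954 and 6147 CPM in Numb exon 6 libraries of mouse 1 and mouse 2, against 8160 and 8066 CPM in the control libraries. Both Numb exon 6 libraries lay below both controls, and the controls differed little from each other. Its log2 fold change of -0.31 ± 0.10 (SE, 2 libraries per group) came from log2 ratios of -0.23 within mouse 1 and -0.39 within mouse 2, which amounts to a level 19.3% lower. Leaving out the Numb exon 6 library of mouse 2, the one with the neutrophil transcripts, gave -0.22. Here and below, a fit without 1 library has no mouse block and breaks a pair, so the difference between the mice enters its value. Hmox1 is also a gene of macrophages that take up red cells. Macrophage and monocyte markers (14 genes) summed to 46.9 and 64.4 TPM in the Numb exon 6 libraries, against 38.9 and 45.0 TPM in the controls, and 8 of the 14 were below 1 TPM in all libraries, with none at 0. Erythroid markers (7 genes) summed to 928 and 1734 TPM with the Numb exon 6 morpholino, against 538 and 1532 TPM with the control. Both sums, in TPM, were higher with the Numb exon 6 morpholino in each mouse. Within the macrophage and monocyte list 9 markers were higher and 3 lower in both mice in CPM, against 28.1% and 27.3% of all tested genes. The lower ones were Csf1r, C1qa and Cd163, and Cd163 stood at 0.025 and 0.069 TPM, against 0.183 and 0.107 TPM. The part of these cells in the result was not tested. In these bulk samples fewer expressing cells and less RNA per cell cannot be told apart.

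Thioredoxin reductase and sulfiredoxin, which act in the same peroxide-clearing chain, lay on the same side. Txnrd1 stood at 2013 and 2061 CPM in Numb exon 6 libraries, against 2269 and 2535 CPM in the control libraries, with a log2 fold change of -0.24 ± 0.10 (SE). Srxn1 stood at 724 and 724 CPM in Numb exon 6 libraries, against 810 and 803 CPM in the controls, with a log2 fold change of -0.16 ± 0.09 (SE). In neither gene did the groups overlap. Between libraries of the same morpholino Srxn1 was the steadiest of the 10, with values within 1 per cent of each other. Over the 4 libraries Nfe2l2 had a smaller range, 0.12 in log2 CPM against 0.16 for Srxn1. The counts of Txnrd1 are uncertain to a small extent, since Eid3 is annotated on the same strand within its bounds. Eid3 stood at 36 and 60.7 TPM in the Numb exon 6 libraries, against 53.7 and 65.4 TPM in the controls.

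The ligase subunits for glutathione were less even. Gclm stood at 246 and 216 CPM in Numb exon 6 libraries, against 268 and 255 CPM in the control libraries, with a log2 fold change of -0.18 ± 0.12 (SE), or -0.09 when the Numb exon 6 library of mouse 2 was left out and -0.28 when that of mouse 1 was. Gclc stood at 69.4 and 84.9 CPM in Numb exon 6 libraries, against 89.7 and 88.5 CPM in the controls, with a log2 fold change of -0.21 ± 0.14 (SE). The lower mean of Gclc came mainly from mouse 1, where its log2 ratio was -0.37, against -0.06 in mouse 2; it was -0.07 when the Numb exon 6 library of mouse 1 was left out and -0.36 when that of mouse 2 was. On the scale of TPM the Gclc groups overlapped, because the Numb exon 6 library of mouse 2 stood at 55.7 TPM, against 54.5 and 55.5 TPM in the controls. Gclm overlaps the gene model Gm17494 on the opposite strand. That model stood at 49.3 and 68.2 TPM in the Numb exon 6 libraries, against 75.0 and 75.4 TPM in the controls, and so was lower in both mice, as Gclm was. The protocol does not mark strand, so reads of this pair cannot be told apart. The part of Gm17494 in the Gclm values was not tested.

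Nfe2l2 itself stood at 392 and 363 CPM in Numb exon 6 libraries, against 374 and 393 CPM in the control libraries. The groups overlapped and the mice went opposite ways (log2 ratios of 0.07 and -0.11), for a log2 fold change of -0.02 ± 0.11 (SE). Nqo1 stood at 2.77 and 2.12 CPM in Numb exon 6 libraries, against 2.62 and 2.77 CPM in the controls, with a log2 fold change of -0.14 ± 0.27 (SE) whose ratios were 0.08 in mouse 1 and -0.38 in mouse 2. At so low a level no difference of this size could be told from the spread.

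The metallothioneins lay on the other side. Mt1 stood at 821 and 955 CPM in Numb exon 6 libraries of mouse 1 and mouse 2, against 661 and 782 CPM in the control libraries. The groups did not overlap, the ratios within the mice were nearly equal (log2 0.31 and 0.29), and the level was 23.1% higher, at a log2 fold change of 0.30 ± 0.14 (SE), or 0.30 ± 0.07 (SE) in the paired fit. It was 0.18 when either the control library of mouse 1 or the Numb exon 6 library of mouse 2 was left out. Mt2 stood at 535 and 651 CPM in Numb exon 6 libraries, against 488 and 617 CPM in the controls. Its groups overlapped across the mice, although its ratio was above 0 within each of them (log2 0.13 and 0.08). The log2 fold change was 0.10 ± 0.17 (SE), or 0.10 ± 0.07 (SE) in the paired fit. It was -0.06 when the control library of mouse 1 was left out and -0.05 when the Numb exon 6 library of mouse 2 was. Mt2 was higher in mouse 2 under both morpholinos, and that difference enters these 2 unpaired values. In TPM, the ratio of Mt1 to Mt2 was 1.42 and 1.36 in the Numb exon 6 libraries, against 1.25 and 1.18 in the control libraries. Mt2 lies upstream of Mt1 on chromosome 8 with 5513 bases between the gene bounds (GRCm38 chr8:94172664-94173568 and chr8:94179082-94180327, both on the plus strand). The antisense model Gm45774 overlaps Mt2 and stood at 34.8 and 38.2 TPM in the Numb exon 6 libraries, against 25.1 and 33.6 TPM in the controls, and reads of this pair cannot be told apart either. The summed markers of satellite cells, of macrophages and monocytes and of myofibres were ordered over the 4 libraries as the TPM of Mt1 was. The Numb exon 6 library of mouse 2 was highest and the control library of mouse 1 lowest. The other marker lists were ordered otherwise. Sdc4 made up most of the satellite cell sum and Actn3 most of the myofibre sum. Single markers did not all share that order, and Myf5 and Acta1 were highest in the Numb exon 6 library of mouse 1. The part of these cells in the level of Mt1 was not tested. Within the macrophage and monocyte list the markers differed, with Lyz2 at 12.3 and 21.2 TPM in Numb exon 6 libraries, against 6.09 and 6.14 TPM in controls, and Csf1r at 1.03 and 0.799 TPM, against 1.34 and 1.40 TPM.

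**Figure D3:**
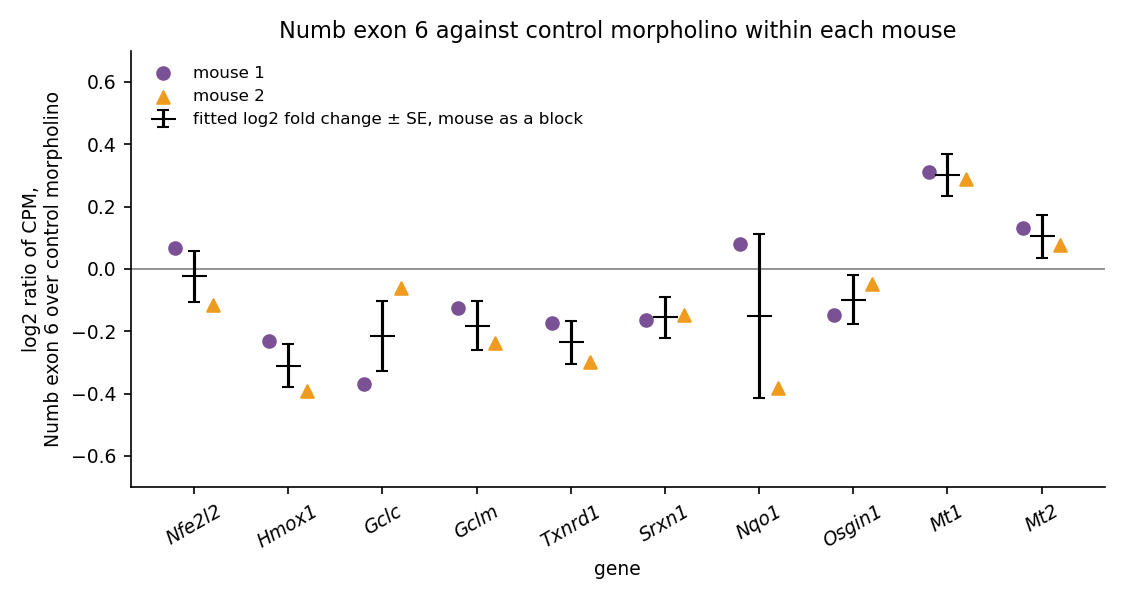
Log2 ratio of CPM, Numb exon 6 over control morpholino, for each of the 10 genes in mouse 1 (circles) and mouse 2 (triangles), with the log2 fold change of the paired fit and its SE (bars; n = 2 per group). Hmox1, Gclc, Gclm, Txnrd1, Srxn1 and Osgin1 have both points below 0, Mt1 and Mt2 have both above 0, and the points of Nfe2l2 and Nqo1 straddle it.

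Osgin1 differed more between the animals than any other of the 10 genes. It stood at 429 CPM in mouse 2 and 140 CPM in mouse 1 with the Numb exon 6 morpholino, and at 443 CPM in mouse 2 and 155 CPM in mouse 1 with the control morpholino. The log2 ratios of mouse 2 over mouse 1 were 1.61 and 1.51, while those of the morpholinos were -0.15 within mouse 1 and -0.05 within mouse 2. The SE of its morpholino contrast was 0.68, and 0.08 in the paired fit. Of the 27551 tested genes, 3.88% were over 2-fold higher in mouse 2 under both morpholinos, and among the 8469 whose mean log2 CPM reached 3, as that of Osgin1 did, the share was 0.236%. Of the 10 genes 4 were higher in mouse 2 under both morpholinos and 2 lower, against 28.8% and 38.8% of those 8469 genes. Each mouse is 1 animal, so this difference has no replicate and no test. Zc3h12a, Scd2 and Lif had the profiles nearest to that of Osgin1 among 7905 genes, by Euclidean distance over 4 libraries (0.218, 0.282 and 0.323 in log2 CPM).

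The count and the TPM of Osgin1 did not give the same size of difference. In TPM it stood at 396 in mouse 2 and 160 in mouse 1 with the Numb exon 6 morpholino, and at 404 in mouse 2 and 193 in mouse 1 with the control, which are log2 ratios of 1.3 and 1.06 on log2(TPM + 1). The mean transcript length implied by count and TPM was 2131 bases in mouse 2 and 1718 bases in mouse 1 with the Numb exon 6 morpholino, and 2110 bases in mouse 2 and 1491 bases in mouse 1 with the control. GENCODE vM21 lists 7 transcripts of Osgin1 (GRCm38 chr8:119434124-119446256, plus strand), of 381 to 2302 bases, so the libraries of mouse 1 were assigned a larger share of shorter models. For Hmox1, Mt1 and Mt2 the implied lengths differed by less than 2 bases between libraries. Those of Gclm ranged from 4136 to 4420 bases. Gclc had 3000 and 2994 bases in the Numb exon 6 libraries, against 3054 and 3061 bases in the controls. Among the 10 genes a 2-fold difference between the mice was found for Osgin1 alone. Mt1 and Mt2 were higher in mouse 2 under both morpholinos, with log2 ratios of 0.22 and 0.24 for Mt1 and of 0.28 and 0.34 for Mt2 (Numb exon 6, then control). The other 7 lay between -0.38 and 0.29.

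**Figure D4:**
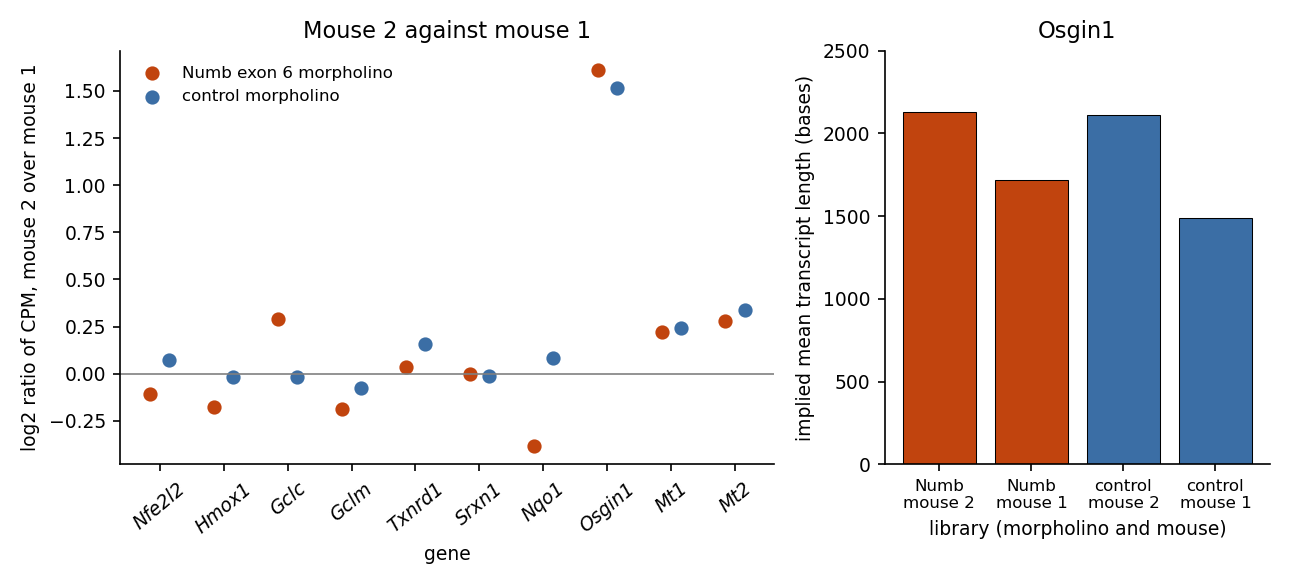
Left, log2 ratio of CPM of mouse 2 over mouse 1 for each of the 10 genes under the Numb exon 6 morpholino (orange-red) and the control morpholino (blue); right, mean transcript length of Osgin1 implied by count and TPM in each library, in bases. Osgin1 stands at 1.61 and 1.51, the other genes between -0.38 and 0.34, and the implied length is 2131 and 2110 bases in mouse 2 against 1718 and 1491 bases in mouse 1.

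For the metallothioneins the nearest profiles were Prpsap2, Haus7 and Fech for Mt1 (0.029 to 0.044) and Ifnar2, Rab43 and Vps53 for Mt2 (0.003 to 0.018), by the same distance. Among the 10 genes the nearest pair was Hmox1 and Gclm (0.136), followed by Gclm and Srxn1 (0.140) and by Txnrd1 and Srxn1 (0.148).

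The other known targets of NRF2 were then examined as a list of 32 genes that holds none of the 10. This list was drawn up with earlier results of these data known. Of the 31 that passed the filter on low counts, 20 were lower and 4 higher with the Numb exon 6 morpholino in both mice, and 7 went opposite ways. Their median was -0.19 on the log2 scale, with -0.25 within mouse 1 and -0.10 within mouse 2. None of the 31 passed the test over all genes by edgeR, paired or not, or by DESeq2. Before adjustment 2 reached an edgeR p under 0.05, or 8 in the paired fit, against the 4.16% and 6.09% of all tested genes and, in the paired fit, 10.2% of those whose mean log2 CPM reached 3. On log2(TPM + 1), where 23% of all genes were lower in both mice, 17 of the 31 were lower and 4 higher. Of the 21 genes of the list whose mean log2 CPM reached 3, 14 were lower and 2 higher in both mice, against 30.2% lower and 31% higher among all genes at that level. Targets of 1 factor can move together, and no test of the list as a whole was made.

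The ferritins were the most abundant of these targets. Fth1, the ferritin heavy chain, which stores the iron that heme oxygenase frees, stood at 1246 and 1309 CPM in Numb exon 6 libraries, against 1570 and 1580 CPM in the control libraries. Its log2 fold change was -0.30 ± 0.09 (SE; edgeR adjusted p = 0.999, paired 0.796). Ftl1, the light chain, stood at 1596 and 1933 CPM in Numb exon 6 libraries, against 1903 and 2266 CPM in the controls, with a log2 fold change of -0.24 ± 0.15 (SE). Leaving out a library of mouse 1 gave -0.11 (Numb exon 6) and -0.36 (control) for Ftl1, and leaving out one of mouse 2 gave -0.39 (Numb exon 6) and -0.12 (control). The groups did not overlap for Fth1 and overlapped for Ftl1, whose ratios within the mice were nevertheless close (-0.25 and -0.23). Both genes have processed copies in the mouse genome, so their counts are uncertain as far as reads were split among them.

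Among the targets whose mean log2 CPM reached 3 and whose direction was the same in both mice, glutathione reductase and an enzyme of NADPH supply had the largest log2 fold changes. Gsr, which returns oxidised glutathione to its reduced form, stood at 10.9 and 9.83 CPM in Numb exon 6 libraries, against 17.5 and 14.5 CPM in the control libraries. Its log2 fold change was -0.62 ± 0.18 (SE; edgeR adjusted p = 0.999, paired 0.796), and the groups did not overlap. Pgd, a dehydrogenase of the pentose phosphate pathway, stood at 54.3 and 48.4 CPM in Numb exon 6 libraries, against 84.9 and 54.8 CPM in the controls. Its log2 fold change of -0.44 ± 0.23 (SE) was -0.09 when the control library of mouse 1 was left out and -0.73 when that of mouse 2 was.

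**Figure D5:**
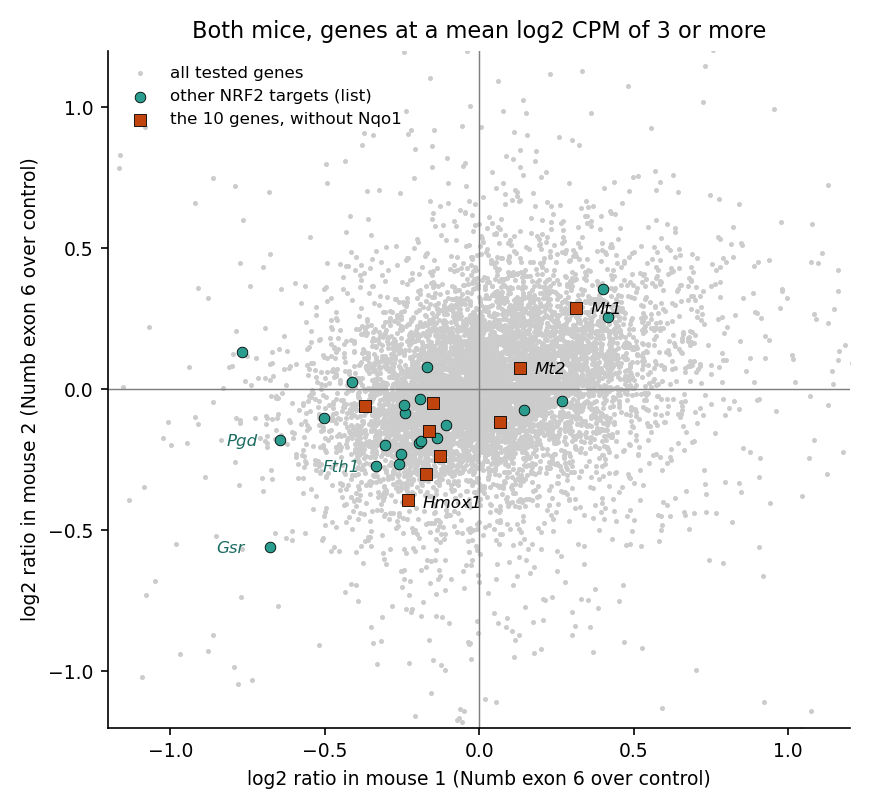
Log2 ratio of CPM, Numb exon 6 over control morpholino, in mouse 1 (x axis) and mouse 2 (y axis) for the 8469 genes whose mean log2 CPM reached 3 (grey; 101 lie outside the axes), for the 21 other NRF2 targets at that level (green circles) and for 9 of the 10 genes (orange-red squares; Nqo1 lies below that level). Of the green points 14 lie below 0 in both mice and 2 above 0 in both, where Mt1 and Mt2 also lie.

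The regulators of NRF2 and the lists that follow, also drawn up with earlier results known, were described in the same way. No list was tested as a whole or against another. Over all tested genes 28.1% were higher and 27.3% lower in both mice, and 4.16% had an edgeR p under 0.05, or 6.09% in the paired fit. With the Numb exon 6 morpholino 3 of the 14 regulators were higher and 3 lower in both mice, around a median of -0.03, and 0 passed in either edgeR fit or in DESeq2 (1 at an edgeR p under 0.05 before adjustment, 2 paired). Sqstm1, the autophagy receptor that draws KEAP1 away from NRF2, was the most abundant at 4838 and 6270 TPM in the Numb exon 6 libraries, against 4391 and 6318 TPM in the controls. Its log2 fold change was -0.002 ± 0.207 (SE), and 0.005 in the paired fit. Mafk, a small MAF partner, had 0.09 ± 0.11 (SE). Among regulators whose mean log2 CPM reached 3 and whose direction was the same in both mice, the largest log2 fold changes were those of Btrc, a ubiquitin ligase adaptor that can also target NRF2, at 0.51 ± 0.19 (SE), and of Bach2, a repressor of antioxidant response elements, at -0.41 ± 0.17 (SE).

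Antioxidant enzymes outside the NRF2 lists were spread around 0. Of 28 such genes 9 were higher in both mice and 5 lower, around a median of -0.005, and 0 passed in either edgeR fit or in DESeq2 (1 at an edgeR p under 0.05 before adjustment, 3 paired). Gpx3, the secreted glutathione peroxidase, was the most abundant, at 7223 and 8078 TPM in the Numb exon 6 libraries, against 6585 and 3182 TPM in the control libraries. The control library of mouse 2 was far below the other 3, with a log2 ratio of 0.05 in mouse 1 and 1.3 in mouse 2. The log2 fold change of 0.57 ± 0.35 (SE) was 0.12 when that library was left out and 1.23 when the control library of mouse 1 was. Sod1, the cytosolic superoxide dismutase, had a log2 fold change of -0.01 ± 0.10 (SE) and Glrx5, a mitochondrial glutaredoxin of iron-sulfur cluster assembly, -0.45 ± 0.17 (SE).

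The zinc and metal handling genes did not follow the metallothioneins as a group. Of 23 that passed the filter, out of 24 listed, 8 were higher and 6 lower in both mice, the median was 0.02, and 0 passed in either edgeR fit or in DESeq2 (0 at an edgeR p under 0.05 before adjustment, 1 paired). Mtf1, the factor that binds metal response elements, had a log2 fold change of 0.27 ± 0.19 (SE), with ratios of 0.02 in mouse 1 and 0.49 in mouse 2, and 0.05 when the Numb exon 6 library of mouse 2 was left out, or 0.45 when that of mouse 1 was. The zinc importers Slc39a14 and Slc39a1 had 0.12 ± 0.10 and 0.20 ± 0.15 (SE), and Slc39a7, which releases zinc from the secretory pathway, had -0.29 ± 0.17 (SE). When the Numb exon 6 library of mouse 2 was left out, Slc39a1 was at 0.07 and Slc39a7 at -0.10, and when that of mouse 1 was, they were at 0.31 and -0.53. Leaving out a control library gave 0.07 (mouse 1) and 0.32 (mouse 2) for Slc39a1. Heme and iron genes gave 6 higher and 4 lower of 18, a median of 0.08 and 0 calls in those fits (1 at an edgeR p under 0.05 before adjustment, 2 paired). Among them Slc11a2, a divalent metal transporter, had -0.31 ± 0.12 (SE), and the heme synthesis gene Ppox had 0.32 ± 0.14 (SE).

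Genes that respond to glucocorticoids, a list drawn up with earlier results of these data known, were described last. Of 10, 7 were higher and 0 lower in both mice, against 28.1% and 27.3% of all tested genes, around a median of 0.16. None passed in edgeR, where 2 reached a p under 0.05 before adjustment and 4 in the paired fit, against 4.16% and 6.09% of all tested genes and, in the paired fit, 10.2% of those whose mean log2 CPM reached 3, as that of all 10 did. No test of the list or of a link to Mt1 was made. Pdk4, a brake on pyruvate oxidation, stood at 140 and 126 CPM in Numb exon 6 libraries, against 70.4 and 101 CPM in the control libraries, with a log2 fold change of 0.64 ± 0.20 (SE; edgeR adjusted p = 0.999). It was 0.40 when the control library of mouse 1 was left out. The paired DESeq2 fit called it (adjusted p = 0.0187) and no other fit run did, with adjusted p values of 0.380 to 0.9999. Zbtb16, a glucocorticoid-induced zinc finger factor, stood at 57.8 and 55.6 CPM in Numb exon 6 libraries, against 37.8 and 41.8 CPM in the controls, with a log2 fold change of 0.51 ± 0.13 (SE; edgeR adjusted p = 0.999, paired 0.796). The most abundant members, the kinase Sgk1 and the phosphatase Dusp1, had 0.05 ± 0.16 and 0.03 ± 0.10 (SE).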

How the data were processed

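RNA of satellite cells from 2 mice was sequenced, with 1 library per morpholino and mouse. SMART-Seq2 cDNA was prepared from 5 ng of RNA, per the labels' protocols, a chemistry that does not mark strand. The submitters' processing notes name StringTie 1.3.6, HISAT2 2.1.0 and GRCm38, with no annotation release. The authors deposited estimated counts, which are whole numbers, and TPM values, which the authors scaled to transcript length and library. Among genes with 1 transcript in GENCODE vM21 and over 500 counts, at least 99.96% had an estimated count within 1% of the product of TPM, length and a factor of the library. That factor gave the implied transcript lengths.

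Counts were tested over all genes with edgeR 4.0.16 (R 4.3.3; quasi-likelihood, robust, TMM, default expression filter by group, no block), with p-values adjusted by Benjamini-Hochberg and called at 0.05. Fold changes are given as log2 of Numb exon 6 over control, and the SE is derived from the quasi-likelihood statistic. Ratios within a mouse come from log2 CPM values made with a prior count of 2. The labels tie each pair of same-numbered samples to 1 mouse, so they are paired: their deviations from group means correlated at 0.40 over the 8469 genes whose mean log2 CPM reached 3 and at 0.06 over all tested genes. Whether libraries of a mouse came from separate portions of muscle is not stated, so p-values measure the spread between these libraries. The mice, 1 animal each, were compared without a test.

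The 10 genes, the 6 pathway lists (regulators of NRF2, other targets, other antioxidant enzymes, zinc and metal handling, heme and iron, glucocorticoid response) and the 7 marker lists were chosen with earlier results of these data known. Genes named from a pathway list were its 2 most abundant, any called by edgeR, and the 2 with the largest log2 fold change among those whose mean log2 CPM reached 3, with 1 direction in both mice; 1 gene that this rule names is not reported here. Alternatives were the mouse block, RLE and upper quartile factors, other filters, DESeq2 1.42.0, limma 3.58.1 (voom, log2(TPM + 1) and log2(TPM + 0.1)), counts divided by 4, removal of mitochondrial and rRNA-like genes and of each library. Of the 55487 identifiers, 55094 were in GENCODE vM21, which gave gene bounds; promoter sequences are those of RefSeq.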

Additional observations from a re-analysis of the deposited data

How the results depend on the processing

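Of 159 recomputed log2 fold changes of the 10 genes under 16 alternatives, 150 moved by less than the spread between replicates. The signs of Hmox1, Gclc, Gclm, Txnrd1, Srxn1 and Mt1 were kept in all of theirs. The replicates are the 2 mice, so a gene that differs between them has a wide spread. All 16 values of Osgin1 fell within its spread, against 10 of the 16 of Srxn1. The 150 therefore do not show that the fold changes were stable. Nqo1 fell under the filter of 5 CPM in 2 libraries. Without 1 library at a time Osgin1 ranged from -1.10 to 0.86, Mt1 from 0.18 to 0.42, Hmox1 from -0.40 to -0.22, Gclc from -0.36 to -0.07, Gclm from -0.28 to -0.09 and Nqo1 from -0.35 to 0.04. Osgin1 was 0.86 without the control library of mouse 2, -1.10 without its Numb exon 6 library, and 0.52 and -0.64 without the Numb exon 6 and the control library of mouse 1. In the paired fit on all libraries it was -0.10 ± 0.08 (SE). Fits without 1 library are unpaired, so these ranges hold the difference between the mice as well as that between the morpholinos.

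The median over the 10 genes was -0.15 in the main test. With the replicate block it was -0.154 in edgeR and -0.155 in DESeq2, -0.193 with upper quartile factors, -0.156 without a filter, -0.163 with 5 CPM in 2 libraries, -0.114 on log2(TPM + 1) and -0.115 on log2(TPM + 0.1); without 1 library it ranged from -0.165 to -0.121. Over all genes edgeR called 5 higher and 5 lower without a filter and 1 higher and 0 lower with 5 CPM in 2 libraries; DESeq2 called 39 and 26, and 104 and 55 with the replicate block. Without 1 library at a time edgeR called 0 or 1 gene higher and 0 lower. Of the other pathway genes 1 (Pdk4, 0.66) was called, by DESeq2 with the replicate block. The mouse block in edgeR changed no call among the 10 genes or the pathway lists.

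Of 336 recomputed values of named pathway genes, 15 changed sign, all for genes within 0.1 of 0. Sqstm1 was 0.00541 with the replicate block, 0.00404 in DESeq2 with it, 0.00151 in limma-voom, 0.0644 on log2(TPM + 1) and 0.0644 on log2(TPM + 0.1). On the TPM scales Sod1 was 0.0258 and 0.0258. Dusp1 was -0.018 with upper quartile factors. Without 1 library at a time Sqstm1 ranged from -0.22 to 0.24, Mafk from -0.00246 to 0.177, Sod1 from -0.0507 to 0.0175, Sgk1 from -0.119 to 0.231 and Dusp1 from -0.0193 to 0.0619. The causes were not tested.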
